A study of Homo sapiens with 9 samples.

Results

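The SR and TRA2 genes encode RNA-binding splicing regulators. Those described here were chosen by name: SRSF1, SRSF2, SRSF3, SRSF4, SRSF5, SRSF6, SRSF7, SRSF10, TRA2A and TRA2B, 10 of the 58214 genes with a transcript that matched the annotation. They hold 111 of 198775 matched transcripts. GENCODE annotates 40 of these as protein-coding, 21 as substrates of nonsense-mediated decay (NMD isoforms) and 50 as noncoding, 37 of which retain an intron. Polyadenylated RNA from K562, an established human myelogenous leukaemia line, was sequenced in 3 groups of 3 libraries. The groups received a nontargeting siRNA (SCR, whose treatment label is WT), siRNA against DHX34 or siRNA against UPF1. By the study's methods the siRNAs were given again on day 3, and all groups were harvested on day 4 after the first transfection. The design asks what loss of either factor does to the transcripts of these regulators. Both knockdowns were partial and transient in a single cell line, and the study describes the replicates as biological.

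SR proteins carry RNA recognition motifs and a domain rich in arginine and serine, and they direct the choice of exons in most human pre-mRNAs. Their own genes hold poison exons, alternative exons with an in-frame stop codon. When the exon is included, the stop lies upstream of an exon junction, a position that marks the transcript for NMD, so the same gene can yield a protein-coding messenger or an RNA that is normally degraded. UPF1 is the RNA helicase at the core of NMD, and DHX34 is an RNA helicase that binds UPF1 and the NMD kinase SMG1.

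Library totals ran from 73478797 to 103625443 expected counts. The targeted genes checked the labels: DHX34 was at 18.7 ± 0.671 TPM in SCR and 9.98 ± 0.925 in its knockdown, and UPF1 was at 49.2 ± 2.59 in SCR and 23.1 ± 0.168 in its knockdown (SD, n = 3). TPM is relative abundance corrected for transcript length and library depth. All 9 erythroid markers of K562 were above 1 TPM. Their summed level was 25562 to 27154 TPM in SCR, 23536 to 25636 in the DHX34 knockdown and 15519 to 16726 in the UPF1 knockdown. The part of this shift in the results below was not tested. Mean levels of single markers ran from 37.3 TPM in TAL1 to 10542 in the globin gene HBG2, so the sum does not show how each marker moved. The summed level of 8 markers of other cell types ran from 70.0 to 85 TPM over the 9 libraries. EPCAM, an epithelial marker, made up most of it with a mean of 72.7 TPM, and the B cell marker MS4A1 was at 0. In bulk RNA, fewer cells with a transcript and less of it per cell cannot be told apart.

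The stop codons that set these NMD isoforms apart show how the genes differ in structure. All 21 NMD isoforms have a junction more than 50 bases downstream of the stop, with 57 to 1138 bases from the stop to the last junction and 1 to 8 junctions downstream of it. In 3 of them, SRSF1-207, SRSF2-204 and SRSF2-208, the stop is that of the reference coding isoform, and the extra junctions lie in the 3′ untranslated region. The sequences below run 5′ to 3′ on the transcript strand (GENCODE 44, GRCh38), from the first base of the poison exon to the stop codon of the NMD isoform that holds it, which is in capitals. Each holds the premature stop of an NMD isoform measured here, though not of every NMD isoform of its gene. In TRA2A the stop shown is that of TRA2A-211, at means of 0.137 TPM in SCR and 1.74 in the UPF1 knockdown. TRA2A-203, at 0.562 and 4.26 TPM, stops in the next exon.
TRA2B, chr3:185931772-185931852, minus strand: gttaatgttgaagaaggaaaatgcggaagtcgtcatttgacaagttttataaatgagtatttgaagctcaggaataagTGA
TRA2A, chr7:23522289-23522432, minus strand: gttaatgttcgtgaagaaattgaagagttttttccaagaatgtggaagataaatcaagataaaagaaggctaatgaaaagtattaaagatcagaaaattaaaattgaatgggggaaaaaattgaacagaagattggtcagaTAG
SRSF3, chr6:36599821-36599854, plus strand: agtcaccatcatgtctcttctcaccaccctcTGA
SRSF7, chr2:38749319-38749346, minus strand: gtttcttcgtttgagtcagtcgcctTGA
SRSF6, chr20:43459153-43459304, plus strand: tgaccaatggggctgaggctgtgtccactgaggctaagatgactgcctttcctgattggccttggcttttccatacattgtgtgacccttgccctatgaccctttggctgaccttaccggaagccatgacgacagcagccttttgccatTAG
SRSF4, chr1:29166009-29166064, minus strand: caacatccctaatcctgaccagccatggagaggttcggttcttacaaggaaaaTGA

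Other NMD isoforms reach a stop in another way. In SRSF10-215 the exon before the poison exon is extended, and the stop lies in the extension. SRSF7-208 retains an intron and stops 13 bases into it. SRSF2 ends its coding sequence 7 bases before the end of an exon, shown here as the last 30 bases of that exon, and its NMD isoforms splice out further introns beyond.
SRSF10 extension, chr1:23978673-23978712, minus strand: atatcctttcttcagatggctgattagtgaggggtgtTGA
SRSF7 retained intron, chr2:38749516-38749528, minus strand: gtatttatttTAA
SRSF2, chr17:76736154-76736183, minus strand: aggaaggagcggtgtcctctTAAgaaaatg

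Poison exons were taken as internal exons of NMD or noncoding isoforms that lie wholly within an intron of the reference coding isoform. The members had 17 such exons in 8 genes, none of them in SRSF1 or SRSF5, and 16 had enough signal to be tested. Of these, 15 lie within the coding part of the reference isoform and 13 of these hold a stop in its reading frame when joined to the upstream coding exon. The same held for 77.1% of the 3598 exons of all genes in that position. The 16 exons had a median length of 248 bases, compared with 113 over all 4048 exons tested.

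The exons of TRA2A and TRA2B stand out in composition and share their first 9 bases. TRA2 proteins bind purine-rich RNA with repeated GAA, so AGAA was counted on the transcript strand, with overlaps allowed. AGAA occurred 12 times in the 276-base exon of TRA2B, at 4.35 per 100 bases, and 13 times in the 312-base exon of TRA2A, at 4.17 per 100 bases. Densities at least that high were found in 1.2% and 1.4% of all tested exons, respectively, whose median was 0.37 per 100 bases, and 51.4% of which hold AGAA at least once. The 456-base exon of SRSF3 and the 268-base exon of SRSF6 hold none. These counts are descriptions of the letters, and no binding was measured.

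Levels of the members ranged widely in SCR. SRSF3 had the highest gene sum, 611 ± 19.5 TPM, followed by SRSF2 at 416 ± 5.85, SRSF1 at 294 ± 12.4, SRSF7 at 207 ± 5.50 and TRA2B at 185 ± 1.02 (SD, n = 3). SRSF5 at 133 ± 13.9 and SRSF10 at 122 ± 3.98 overlapped between libraries, and SRSF6, SRSF4 and TRA2A were lowest at 82.7 ± 2.66, 75.3 ± 2.22 and 66.4 ± 2.16 TPM. No other pair of neighbours in this order overlapped. Of the SRSF3 sum, 236.5 TPM was assigned to the noncoding isoform SRSF3-206. By coding isoforms alone, SRSF2 was at 376.6 TPM and SRSF3 at 297.4. The order by NMD isoforms was different: SRSF3 led with 52.1 ± 5.39 TPM, then SRSF6 with 44.2 ± 2.13, TRA2B with 39.1 ± 3.76, SRSF2 with 29.8 ± 3.64 and SRSF7 with 21.0 ± 0.424, none overlapping. The other 5 genes had 0.699 to 2.58 TPM of NMD isoforms.

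**Figure D1:**
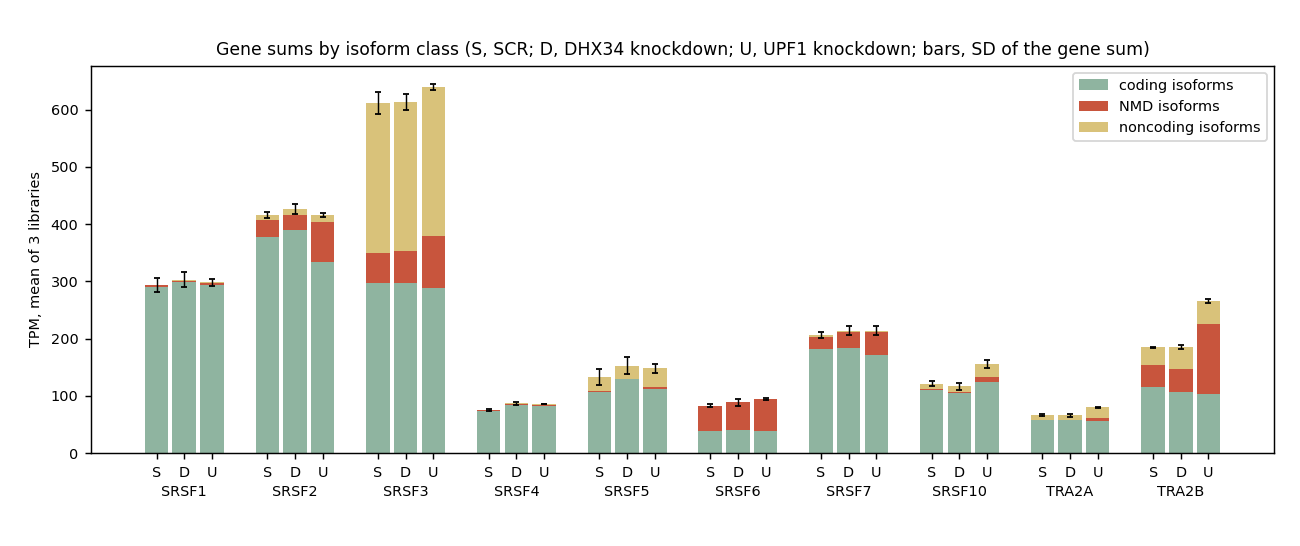
Mean TPM of each gene in the 3 groups (vertical axis, mean of 3 libraries), split into coding, NMD and noncoding isoforms; S, SCR; D, DHX34 knockdown; U, UPF1 knockdown; error bars, SD of the gene sum. The NMD part of TRA2B and SRSF2 is visibly larger in the UPF1 knockdown, and SRSF6 has more NMD than coding TPM in every group.

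In the UPF1 knockdown the NMD isoforms of these genes accumulated. Summed over the 10 genes they were at 199, 198 and 182 TPM in the SCR libraries, 204, 188 and 216 TPM in the DHX34 knockdown, and 395, 411 and 409.9 TPM in the UPF1 knockdown. They made up 9.18%, 8.88% and 8.35% of the members' TPM in SCR, 9.34%, 8.35% and 9.33% in the DHX34 knockdown, and 16.6%, 17.1% and 17% in the UPF1 knockdown. Over all genes, NMD isoforms took 2.17% to 2.24% of TPM in SCR, 2.25% to 2.32% in the DHX34 knockdown and 2.98% to 3.01% in the UPF1 knockdown. The summed coding TPM of the members was 1636 to 1666 in SCR, 1639 to 1736 in the DHX34 knockdown and 1591 to 1612 in the UPF1 knockdown.

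**Figure D2:**
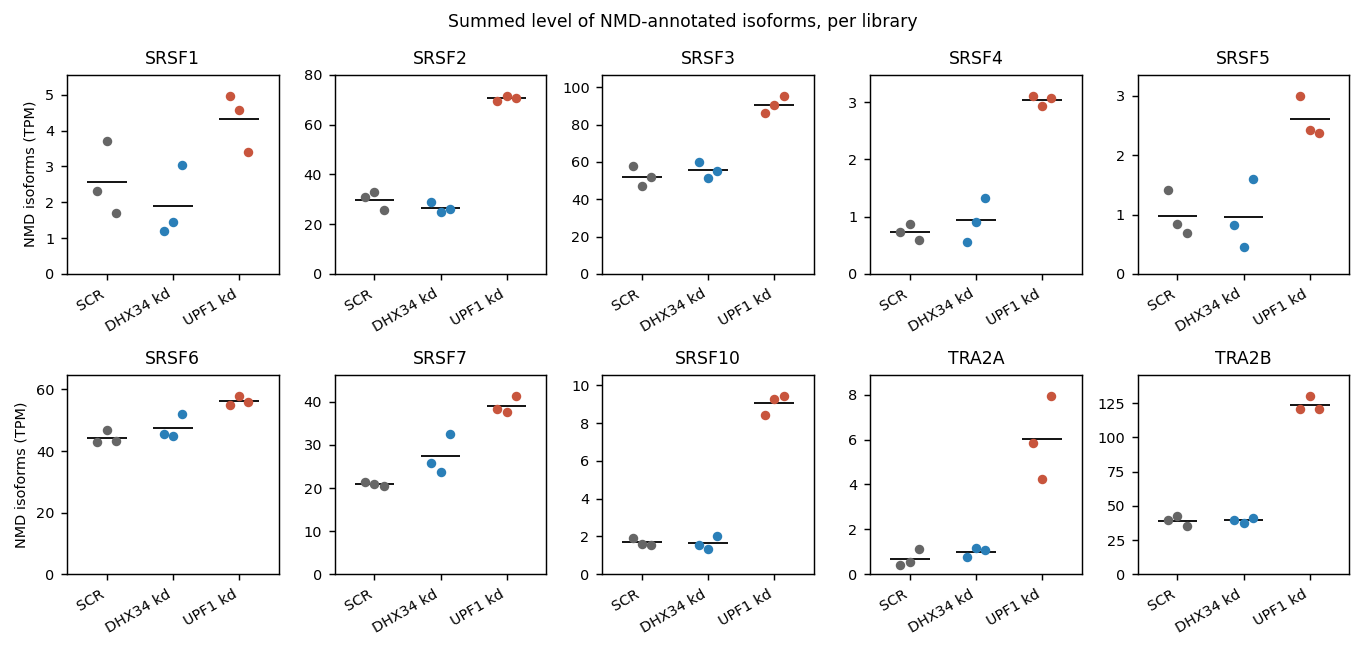
TPM of all NMD isoforms of each gene (vertical axes, starting at 0, scaled per gene) in each of 9 libraries; points, libraries; lines, group means of 3. In 9 of the 10 genes the 3 UPF1 knockdown libraries lie above every SCR and DHX34 knockdown library, and in SRSF1 they overlap the SCR libraries.

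The ratio of NMD to coding TPM within a gene asks whether the balance of the 2 classes changed, and is nearly independent of how libraries are scaled. It is a ratio of RNA levels, so it does not separate splicing from decay. Against SCR, 8 of 10 members had a higher ratio in the UPF1 knockdown and none a lower one (limma, adjusted p of at most 0.05). Over all 3705 genes tested, 15.3% were called higher in that comparison. The median log2 difference was 1.36 over the members and 0.47 over all genes. In 9 members the UPF1 knockdown and SCR libraries did not overlap, in the higher direction, as in 35.8% of all genes tested.

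TRA2A (ENSG00000164548, chr7:23504780-23532041), which like TRA2B acts on purine-rich enhancers, had the largest change. Its NMD isoforms were at 0.412, 0.555 and 1.13 TPM in SCR, 0.779, 1.16 and 1.06 in the DHX34 knockdown, and 5.85, 4.23 and 7.93 in the UPF1 knockdown. All 3 UPF1 knockdown libraries lay above the other 6. The log2 ratio of NMD to coding rose by 3.02 (SE 0.44, limma adjusted p = 0.0122).

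SRSF10 (ENSG00000188529, chr1:23964347-23980927), which represses splicing when dephosphorylated, had 1.94, 1.60 and 1.53 TPM of NMD isoforms in SCR. Values were 1.57, 1.35 and 2.04 in the DHX34 knockdown and 8.44, 9.27 and 9.43 in the UPF1 knockdown, and only the last group stood clear. Its log2 ratio rose by 2.19 (SE 0.24, limma adjusted p = 0.00926).

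TRA2B (ENSG00000136527, chr3:185914558-185938103) had the highest NMD level of all members once UPF1 was depleted. SCR libraries held 39.4, 42.6 and 35.1 TPM, DHX34 knockdown libraries 39.3, 37.8 and 41.4, and UPF1 knockdown libraries 121, 130.1 and 120.4. The first 2 groups overlapped and the third did not. NMD isoforms took 45.1% to 48.5% of TRA2B in the UPF1 knockdown, compared with 19.0% to 22.9% in SCR, and the log2 ratio rose by 1.84 (SE 0.16, limma adjusted p = 0.00749).

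SRSF4 (ENSG00000116350, chr1:29147743-29181900) and SRSF5 (ENSG00000100650, chr14:69726900-69772005) are related SR proteins with 2 RNA recognition motifs, and both had little NMD RNA. SRSF4 held 0.727, 0.879 and 0.593 TPM in SCR, 0.566, 0.913 and 1.33 in the DHX34 knockdown and 3.11, 2.93 and 3.08 in the UPF1 knockdown. SRSF5 held 1.41, 0.842 and 0.692 TPM in SCR, 0.822, 0.450 and 1.60 in the DHX34 knockdown and 3.00, 2.43 and 2.38 in the UPF1 knockdown. In both genes the UPF1 knockdown libraries did not overlap the rest. The log2 ratio rose by 1.79 in SRSF4 (SE 0.26, limma adjusted p = 0.012) and by 1.3 in SRSF5 (SE 0.30, limma adjusted p = 0.037).

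SRSF2 (ENSG00000161547, chr17:76734115-76737333), which regulates its own transcript through splicing in the 3′ untranslated region, had more NMD and less coding RNA after UPF1 depletion. NMD isoforms were at 31.0, 32.8 and 25.8 TPM in SCR, 28.8, 24.9 and 26.1 in the DHX34 knockdown and 69.4, 71.5 and 70.6 in the UPF1 knockdown. Coding isoforms were at 373 to 379.6 TPM in SCR, 376 to 400.4 in the DHX34 knockdown and 329 to 338 in the UPF1 knockdown. The UPF1 knockdown libraries were above the others for NMD isoforms and below them for coding isoforms, and the log2 ratio rose by 1.42 (SE 0.18, limma adjusted p = 0.0105).

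SRSF7 (ENSG00000115875, chr2:38743599-38751494) and SRSF3 (ENSG00000112081, chr6:36594353-36605600) also act as adaptors for mRNA export. SRSF7 NMD isoforms were at 21.4, 21.0 and 20.5 TPM in SCR, 25.8, 23.7 and 32.6 in the DHX34 knockdown and 38.3, 37.6 and 41.3 in the UPF1 knockdown, so that the 3 groups did not overlap. SRSF3 NMD isoforms were at 57.7, 46.9 and 51.9 TPM in SCR, 59.9, 51.6 and 55.1 in the DHX34 knockdown and 86.0, 90.4 and 95.4 in the UPF1 knockdown, where the first 2 groups overlapped. In the UPF1 knockdown the log2 ratio rose by 0.98 in SRSF7 (SE 0.16, limma adjusted p = 0.0152) and by 0.84 in SRSF3 (SE 0.17, limma adjusted p = 0.0259).

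SRSF6 and SRSF1 did not pass. SRSF6 (ENSG00000124193, chr20:43457896-43464243), a relative of SRSF4 and SRSF5, was assigned more NMD than coding RNA in every library. Its NMD isoform was at 42.9, 46.7 and 43.1 TPM in SCR, 45.5, 44.9 and 52.0 in the DHX34 knockdown and 54.8, 57.8 and 56.0 in the UPF1 knockdown, and the last group lay above both others. The log2 ratio was 0.34 higher (SE 0.10, limma adjusted p = 0.0723). Of the 1680 bases of SRSF6-202, the NMD isoform, 268 lie outside every other isoform, so the split from coding RNA is an estimate. SRSF1 (ENSG00000136450, chr17:58000919-58007346), the founding SR protein, was at 2.32, 3.72 and 1.69 TPM of NMD isoforms in SCR, 1.21, 1.45 and 3.03 in the DHX34 knockdown and 4.97, 4.58 and 3.40 in the UPF1 knockdown, where 1 SCR library overlapped. Its log2 ratio was 0.76 higher (SE 0.38, limma adjusted p = 0.214).

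The DHX34 knockdown gave no call among the 10 members (limma, adjusted p of 0.669 to 0.999), and 0.27% of all genes tested were called in either direction. None of the members had an unadjusted p under 0.05, and diffSpliceDGE, the other tool run, called none. The members' median log2 difference was 0.06, and that of all genes 0.02. Groups did not overlap in 1 member, SRSF7, as in 16.0% of all genes tested, with a log2 ratio 0.35 higher (SE 0.21). Of the other 9, the differences ran from -0.50 in SRSF1 (SE 0.47) to 0.54 in TRA2A (SE 0.44). The error was smallest in SRSF6, at -0.00 (SE 0.12), and TRA2B, at 0.13 (SE 0.17).

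Set directly against the DHX34 knockdown, 6 of 10 members had a higher ratio in the UPF1 knockdown and none a lower one, and 13.8% of all genes tested were called higher. These were SRSF2, SRSF3, SRSF4, SRSF10, TRA2A and TRA2B, with log2 differences from 0.75 in SRSF3 (SE 0.15, limma adjusted p = 0.0265) to 2.48 in TRA2A (SE 0.33, limma adjusted p = 0.0122). SRSF5, SRSF7, SRSF6 and SRSF1 had differences of 1.69, 0.63, 0.35 and 1.26 and adjusted p of 0.0506, 0.0658, 0.0713 and 0.0988. In all 10 members the 2 groups did not overlap, as in 33.9% of all genes tested.

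Leaving out a library lowered most of these counts. In the comparison with SCR, the 8 calls became 4, 3 and 2 without UPF1 knockdown replicates 1, 2 and 3, and 8, 6 and 6 without SCR replicates 1, 2 and 3. In the direct comparison of the knockdowns, the 6 calls became 1, 1 and 0 without UPF1 knockdown replicates 1, 2 and 3, and 5, 4 and 6 without DHX34 knockdown replicates 1, 2 and 3.

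**Figure D3:**
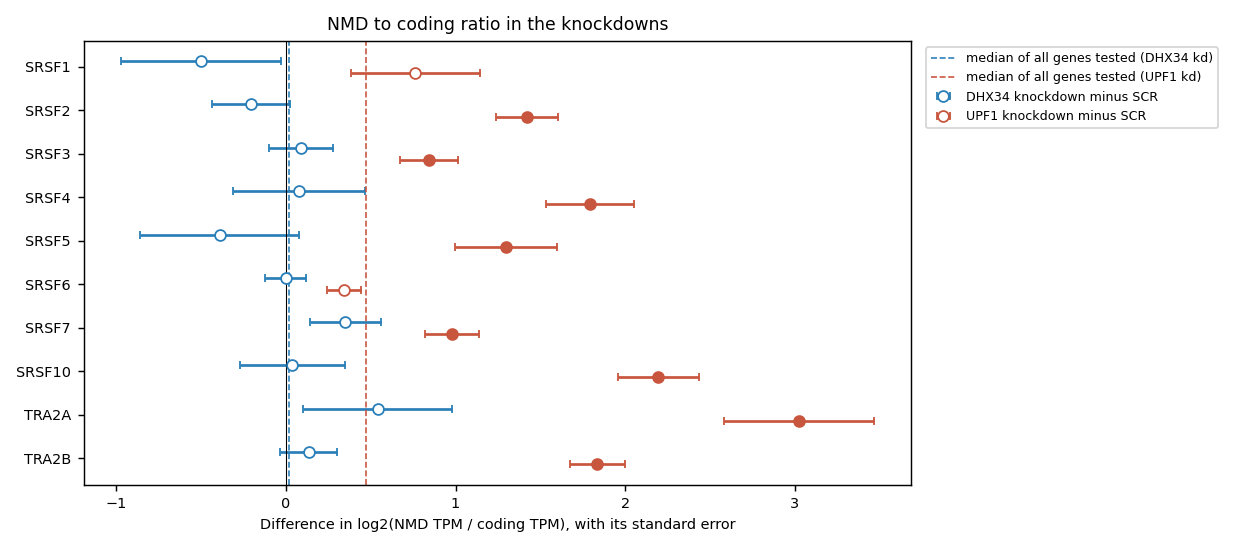
Difference from SCR in the log2 ratio of NMD to coding TPM (horizontal axis) for each gene; points, estimates from 3 libraries a group with their standard errors; filled points, adjusted p of at most 0.05; dashed lines, medians of all 3705 genes tested (0.02 and 0.47). The UPF1 knockdown estimates run from 0.34 to 3.02 and 8 are filled, and the DHX34 knockdown estimates run from -0.50 to 0.54 and none is filled.

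Inclusion of the poison exons was measured as the TPM of isoforms with the exon set against that of isoforms that splice across it. This is a ratio of RNA levels, and whether splicing or the decay of these isoforms changed was not tested. In the UPF1 knockdown 11 of the 16 exons tested had higher inclusion than in SCR and none had lower inclusion (limma, adjusted p of at most 0.05). Over all exons tested, 6.10% were called higher. The members' median log2 difference was 1.62, compared with 0.38 over all exons. In the direct comparison with the DHX34 knockdown 7 were higher and none lower (the exons of TRA2B, SRSF10 and SRSF2, the 449-base exon of SRSF7 and all 3 forms in TRA2A), where 3.88% of all exons were called higher. Several exons share an isoform or overlap, so they are not separate measurements: 4 lie in SRSF4-205, 3 start at the same base in TRA2A and 2 overlap in SRSF7.

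Inclusion of the TRA2B exon (chr3:185931577-185931852) was 23.7%, 24.7% and 21.0% in SCR, 23.4%, 21.7% and 24.4% in the DHX34 knockdown, and 50.2%, 52.3% and 48.6% in the UPF1 knockdown. SCR and the DHX34 knockdown overlapped, and the UPF1 knockdown was apart. The log2 ratio of including to skipping rose by 1.75 (SE 0.15, limma adjusted p = 0.01). The TPM of isoforms that skip it was 128 to 133 in SCR, 130.4 to 138 in the DHX34 knockdown and 119.5 to 128 in the UPF1 knockdown.

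In TRA2A the exon begins at one splice site and ends at 3 alternative sites, giving lengths of 312, 301 and 79 bases. The 312-base form (chr7:23522121-23522432) is carried by TRA2A-208, for which no coding sequence is annotated, so it counts as noncoding above. Its inclusion was 8%, 5.56% and 8.04% in SCR, 4.64%, 5.01% and 4.67% in the DHX34 knockdown, and 18.2%, 19.3% and 20.2% in the UPF1 knockdown. No 2 groups overlapped. The log2 ratio was 1.62 higher in the UPF1 knockdown than in SCR (SE 0.23, limma adjusted p = 0.0195) and 0.59 lower in the DHX34 knockdown (SE 0.27, limma adjusted p = 0.676), which did not pass. The 79-base form, with 0.412, 0.143 and 1.13 TPM in SCR and 4.56, 2.95 and 5.26 in the UPF1 knockdown, rose by 3.02 (SE 0.62, limma adjusted p = 0.0404). It holds no stop in frame, but its length is not a multiple of 3, and the stop of TRA2A-203 lies in the next exon.

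SRSF3 had the longest poison exon of the members, 456 bases (chr6:36599821-36600276). It was included at 15.2%, 13.2% and 12.8% in SCR, 15.8%, 14.2% and 15.1% in the DHX34 knockdown, and 22.2%, 23.1% and 23.5% in the UPF1 knockdown, which did not overlap the other groups. The log2 ratio rose by 0.90 (SE 0.17, limma adjusted p = 0.0358). For the 449-base exon of SRSF7 (chr2:38748898-38749346) inclusion was 2.31%, 2.27% and 2.17% in SCR, 2.11%, 1.73% and 2.17% in the DHX34 knockdown and 7.77%, 6.87% and 8.18% in the UPF1 knockdown. The UPF1 knockdown again stood apart, with a rise of 1.81 (SE 0.23, limma adjusted p = 0.0192).

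The exon of SRSF10 (363 bases, chr1:23977911-23978273) was included at 3.73%, 3.13% and 2.97% in SCR, 4.15%, 3.57% and 4.28% in the DHX34 knockdown and 8.97%, 8.86% and 8.52% in the UPF1 knockdown. The exon of SRSF2 (chr17:76735772-76735875), which lies beyond the coding part, was included at 2.84%, 2.49% and 2.83% in SCR, 2.59%, 2.90% and 3.26% in the DHX34 knockdown and 7.63%, 8.02% and 8.12% in the UPF1 knockdown. In both, only the UPF1 knockdown libraries were clear of the rest. The log2 ratio rose by 1.49 in SRSF10 (SE 0.23, limma adjusted p = 0.0212) and by 1.62 in SRSF2 (SE 0.23, limma adjusted p = 0.0195).

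All 4 exons of SRSF4 rose against SCR, by 1.46 to 1.79 on the log2 scale, and none passed in the direct comparison (limma adjusted p of 0.0503 to 0.0727). The exon that holds the stop of SRSF4-205 (175 bases, chr1:29165890-29166064) went from 1.46%, 1.78% and 1.19% in SCR to 4.38%, 3.95% and 4.13% in the UPF1 knockdown, with 1.35%, 1.53% and 2.34% in the DHX34 knockdown. SRSF6 was again different. Its exon (268 bases, chr20:43459153-43459420) was included at 52.3%, 54.5% and 53.6% in SCR, 53.5%, 52.3% and 54.6% in the DHX34 knockdown and 58.9%, 60.2% and 58.9% in the UPF1 knockdown. The last group was higher without overlap, by 0.34 on the log2 scale (SE 0.12, limma adjusted p = 0.132). The other exons that did not pass against SCR were the 301-base form of TRA2A (log2 difference 1.66), the 98-base exon of SRSF3 (0.28), and the 276-base and 69-base exons of SRSF7 (0.53 and -0.67).

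No member exon passed in the DHX34 knockdown (limma, adjusted p of 0.676 to 0.999), none had an unadjusted p under 0.05, and 0.222% of all exons tested were called in either direction. The members' median log2 difference was 0.03, and that of all exons 0.05. Exon counts also fell with a library left out. For the UPF1 knockdown and SCR, the 11 calls became 0, 1 and 0 without UPF1 knockdown replicates 1, 2 and 3, and 5, 7 and 1 without SCR replicates 1, 2 and 3. The 7 calls of the direct comparison became 0 without any one of the 6 libraries.

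**Figure D4:**
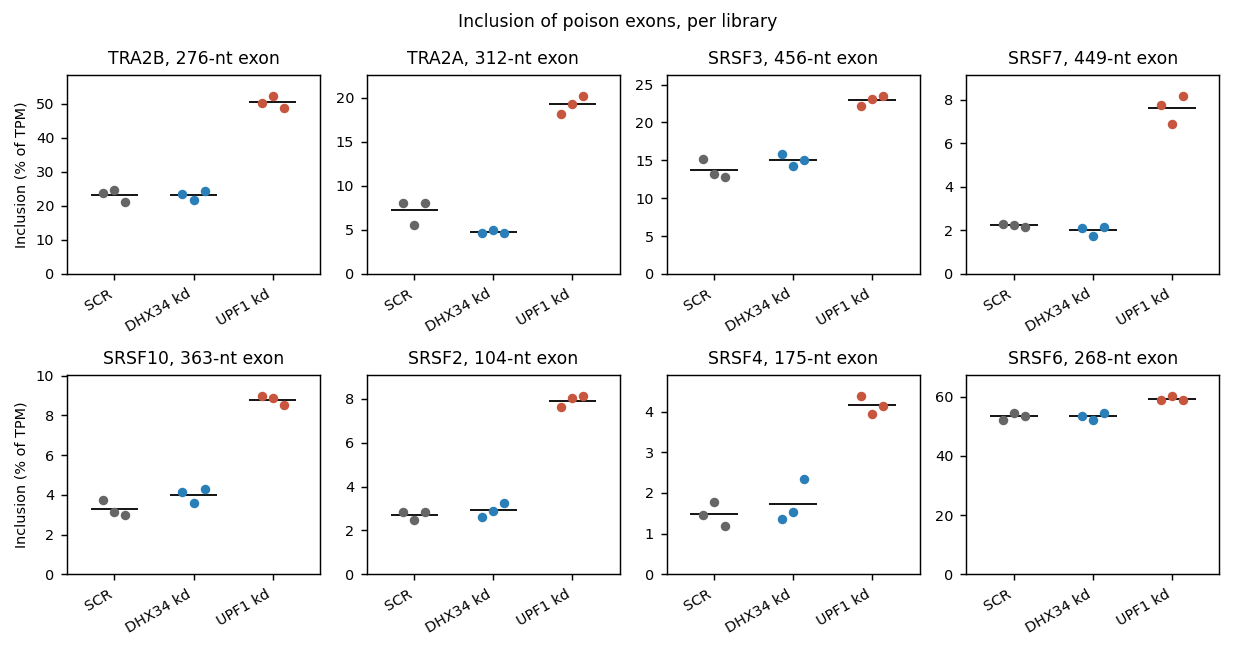
Inclusion of 1 poison exon in each of 8 genes (vertical axes, percent of the TPM of including and skipping isoforms, starting at 0) in each of 9 libraries; points, libraries; lines, group means of 3. Each panel shows the tested exon of that gene with the highest mean inclusion over the 9 libraries. Inclusion in the UPF1 knockdown is above both other groups in every panel, from 48.6% to 52.3% in TRA2B and 58.9% to 60.2% in SRSF6. The 98-base exon of SRSF3 and the 276-base and 69-base exons of SRSF7, not shown, overlapped between the groups.

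Single isoforms showed which transcripts carried these shifts. Reads shared between isoforms were divided by the quantifier, and TRA2B-205, TRA2A-208, SRSF5-216 and SRSF7-208 have no base outside every other isoform, so their levels are estimates. Against SCR, 7 of 92 member isoforms rose and 6 fell in the UPF1 knockdown (edgeR, adjusted p of at most 0.005), where 0.970% of all isoforms tested were called higher and 1.62% lower. On TPM tested with limma, where the median of all isoforms was 0.22 higher, 14 of 67 member isoforms were called higher and 2 lower, and 89.8% of all calls were higher, compared with 37.4% by edgeR. These last percentages are shares of the calls, and the share of all isoforms called on TPM is not given here. The 7 that rose by edgeR were 6 NMD isoforms and a retained intron isoform of SRSF3. The 6 that fell by edgeR were all annotated as coding. TRA2B-205 rose by 1.41 (SE 0.064, edgeR adjusted p = 0.000415). SRSF10-215 rose by 2.21, SRSF4-205 by 1.81, SRSF2-204 by 1.73, SRSF7-204 by 1.51 and SRSF3-203 by 0.60. SRSF3-207, which retains introns, was at 19.4, 20.4 and 20.6 TPM in SCR, 23.0, 23.9 and 30 in the DHX34 knockdown and 31.5, 31.3 and 30.9 in the UPF1 knockdown, where it rose by 0.37.

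The coding isoforms that fell were SRSF3-202, by 0.57, SRSF7-201, by 0.46, SRSF2-202, by 0.44, SRSF7-202, by 0.35, SRSF1-205, by 0.31, and SRSF6-201, by 0.26, which lay at 0.00 when TPM was tested with limma. In TPM the libraries of SRSF1-205 and SRSF6-201 overlapped those of SCR. SRSF2-202 was at 253, 249 and 248 TPM in SCR, 259, 266 and 277 in the DHX34 knockdown and 225, 213 and 219 in the UPF1 knockdown, so that the UPF1 knockdown was lowest without overlap. SRSF3-202 was at 69.7, 67.7 and 67.2 TPM in SCR, 61.8, 69.5 and 61.8 in the DHX34 knockdown and 53.3, 53.9 and 57.8 in the UPF1 knockdown. The shorter coding isoform SRSF3-208, the most abundant of that gene's coding isoforms, was at 215 to 239 TPM in SCR and 232 to 234 in the UPF1 knockdown, and did not pass.

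Compared with the DHX34 knockdown, 6 isoforms rose and 2 fell, where 0.732% of all isoforms were called higher and 0.320% lower. TRA2B-205, SRSF7-204, SRSF3-203, SRSF2-204, SRSF10-215 and TRA2A-208 rose, by 0.64 in SRSF3-203 to 2.40 in SRSF10-215. SRSF2-202 fell by 0.35 and SRSF5-217 by 0.49. TRA2A-208 was at 5.15, 3.25 and 4.88 TPM in SCR, 2.86, 2.95 and 2.82 in the DHX34 knockdown and 12.7, 13.4 and 13.6 in the UPF1 knockdown, and these groups did not overlap.

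Several abundant isoforms missed the threshold. SRSF10-212, which has no annotated coding sequence, was at 1.33, 3.28 and 3.41 TPM in SCR, 2.93, 1.79 and 4.11 in the DHX34 knockdown and 11.6, 14.3 and 14.4 in the UPF1 knockdown. Its UPF1 knockdown libraries lay above the rest, by 2.07 against SCR (SE 0.36, edgeR adjusted p = 0.0179). SRSF2-208, the most abundant NMD isoform of SRSF2, was at 23.0, 26.5 and 19.5 TPM in SCR, 23.2, 16.8 and 17.7 in the DHX34 knockdown and 43.1, 44.3 and 43.9 in the UPF1 knockdown. That is 0.69 above SCR without overlap (SE 0.097, edgeR adjusted p = 0.0084). The main coding isoform of TRA2B, TRA2B-204, was at 77.2 to 81.4 TPM in SCR, 75.0 to 79.0 in the DHX34 knockdown and 76.6 to 80.7 in the UPF1 knockdown, and the groups overlapped. The main coding isoforms of the other genes without a call against SCR were SRSF1-201, at 142 to 155 TPM in SCR and 143 to 156 in the UPF1 knockdown, SRSF4-201, at 67.0 to 73 and 75.8 to 76.5, SRSF10-203, at 26.8 to 28.2 and 35.9 to 37.1, and TRA2A-201, at 54.8 to 58.3 and 53.0 to 55.9. SRSF5-217 was at 58.5 to 70.2 TPM in SCR, 70.9 to 84.0 in the DHX34 knockdown and 55.4 to 57.4 in the UPF1 knockdown. Of the most abundant other isoforms, SRSF1-207 was at 0.583 to 2.86 TPM in SCR and 1.88 to 3.02 in the UPF1 knockdown, and SRSF5-216 at 8.26 to 17.3 and 12.8 to 16.1, with overlap in both.

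Within SRSF7 the 2 main NMD isoforms behaved differently. SRSF7-204, with the poison exon, was at 4.00, 4.37 and 2.97 TPM in SCR, 3.66, 3.32 and 4.15 in the DHX34 knockdown and 12.9, 12.2 and 13.4 in the UPF1 knockdown. SRSF7-208, with the retained intron, was at 16.3, 15.8 and 15.7 TPM in SCR, 21.2, 20.1 and 27.1 in the DHX34 knockdown and 23.4, 23.4 and 24.6 in the UPF1 knockdown. The poison exon isoform was high in the UPF1 knockdown alone, whereas the retained intron isoform was above SCR in both knockdowns, without passing in either (log2 difference 0.34, edgeR adjusted p = 0.154 after DHX34 depletion, and 0.33, edgeR adjusted p = 0.00936 after UPF1 depletion).

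None of the 87 member isoforms tested passed in the DHX34 knockdown, where 0.0463% of all isoforms were called in either direction. An unadjusted p under 0.05 by edgeR was found for 20 of the 87, and for 9208 of all 60416 isoforms. DESeq2 called 4 of 103 member isoforms, all lower, and 2359 of all 114684. Leaving out a library lowered these counts as well. For the UPF1 knockdown and SCR, the 13 calls became 0 without any one of the UPF1 knockdown libraries, and 2, 5 and 2 without SCR replicates 1, 2 and 3. The 8 calls of the direct comparison became 1 without any one of the UPF1 knockdown libraries, and 3, 2 and 3 without DHX34 knockdown replicates 1, 2 and 3.

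Noncoding isoforms, of which 37 of 50 retain an intron, did not shift against the coding isoforms beyond the threshold in any comparison. None of the 9 members with both classes passed in the DHX34 knockdown, the UPF1 knockdown or the direct comparison (limma), where 0.282%, 0.141% and 0.0706% of all 7084 genes tested were called in either direction. At an unadjusted p under 0.05 there were 3, 4 and 4 members, and 694, 1260 and 836 of all genes. The largest difference was in SRSF4, whose noncoding isoforms were at 0.373, 0.678 and 0.274 TPM in SCR, 2.16, 1.13 and 2.37 in the DHX34 knockdown and 1.75, 1.93 and 1.40 in the UPF1 knockdown. Both knockdowns lay above SCR, by 1.69 (SE 0.43, limma adjusted p = 0.308) and 1.64 (SE 0.35, limma adjusted p = 0.103) on the log2 scale. In SRSF10 and TRA2A the UPF1 knockdown was 1.16 above SCR in each, with limma adjusted p of 0.0864 and 0.0888. Their noncoding means in SCR and the UPF1 knockdown were 9.22 and 22.9 TPM in SRSF10 and 8.44 and 18.2 in TRA2A. Retained intron isoforms were a small part of the rise, at 3.21 and 3.77 TPM in SRSF10 and 2.6 and 3.25 in TRA2A in these groups.

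TRA2B noncoding isoforms, mostly with a retained intron, were at 29.6, 33.8 and 27.4 TPM in SCR, 39.5, 41.4 and 37.3 in the DHX34 knockdown and 38.8, 38.4 and 40.7 in the UPF1 knockdown. Both knockdowns were above SCR without overlap, by 0.50 (SE 0.19, limma adjusted p = 0.494) and 0.55 (SE 0.17, limma adjusted p = 0.183). SRSF3 had the highest noncoding level, 246 to 273 TPM in SCR, 247 to 272 in the DHX34 knockdown and 257 to 265 in the UPF1 knockdown. Most of it was assigned to SRSF3-206, an isoform of 544 bases of which 221 lie outside every other isoform, so its level rests on few bases that are its own.

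Gene sums, which add up the coding, NMD and noncoding isoforms, asked whether the total RNA level of a gene changed. In the DHX34 knockdown SRSF10 and TRA2B were lower, and none of the 10 was higher (edgeR, adjusted p of at most 0.005), with 4.86% of all genes tested called lower. SRSF10 had a log2 difference of -0.22 (SE 0.036, edgeR adjusted p = 0.00134) and TRA2B of -0.18 (SE 0.034, edgeR adjusted p = 0.00355), relative to TMM scaling. On TPM tested with limma, where the median of all genes was 0.16 higher in the knockdown, TRA2B was 0.01 higher and SRSF10 had a difference of -0.06, which is -0.16 and -0.22 relative to that median. TRA2B gene sums were 184, 186 and 185 TPM in SCR and 183, 185 and 189.5 in the DHX34 knockdown, and SRSF10 gene sums were 117, 122 and 125 in SCR and 113, 114 and 124 in the knockdown. In both genes the libraries overlapped. Both calls were lost with any one of SCR replicates 1, 2 and 3 or DHX34 knockdown replicates 1 and 2 left out, and without DHX34 knockdown replicate 3 there were 3 calls, all lower.

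After UPF1 depletion TRA2B rose and SRSF1, SRSF2 and SRSF3 fell, where 12.4% of all genes tested were called higher and 12.9% lower. TRA2B gene sums were 262, 268 and 267 TPM in the UPF1 knockdown, above all other libraries, and the log2 difference from SCR was 0.25 (SE 0.027, edgeR adjusted p = 1.6e-05). Its NMD isoforms were at 35.1 to 42.6 TPM in SCR and 120.4 to 130.1 in the UPF1 knockdown. Its coding isoforms were at 109.5 to 122.4 TPM in SCR and 99.6 to 105.8 in the UPF1 knockdown, lower without overlap. The falls were small: 0.21 in SRSF1 (SE 0.028), 0.19 in SRSF2 (SE 0.026) and 0.19 in SRSF3 (SE 0.028), and on TPM tested with limma these 3 genes stood at 0.02, 0.00 and 0.06, where the median of all genes was 0.21 higher. In TPM, SRSF3 was at 589, 621 and 624 in SCR and at 633, 641 and 643 in the UPF1 knockdown, above SCR without overlap, so its fall holds relative to other genes and not in TPM. On that scale TRA2B, SRSF10, TRA2A, SRSF4 and SRSF6 were called higher, by 0.52, 0.36, 0.27, 0.20 and 0.20, which is 0.32, 0.15, 0.06, -0.01 and -0.01 relative to that median. TRA2B was the member that was called higher on both scales. Of all genes called against SCR, 49.0% were higher in the edgeR test and 91.6% on TPM, and in the DHX34 knockdown 53.3% and 87.9%. These are shares of the calls, and the share of all genes tested that was called on TPM is not given here.

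Directly compared with the DHX34 knockdown, SRSF10 and TRA2B were higher in the UPF1 knockdown and none was lower, where 9.89% of all genes tested were called higher and 7.47% lower. SRSF10 gene sums of 149, 158 and 162 TPM in the UPF1 knockdown lay above the other 6 libraries. The log2 differences were 0.31 (SE 0.036) and 0.44 (SE 0.030), and the TPM test called both in the same direction, by 0.41 and 0.52. That test also called TRA2A higher, by 0.28 (limma adjusted p = 0.00233). On TPM the median of all genes was 0.04 higher, and 70.4% of the 1509 calls were higher, compared with 57.0% by edgeR.

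Other SR and SR-related proteins were taken from a fixed list of 15, of which 14 were tested for gene sums. In the DHX34 knockdown SON rose by 0.28 and SRSF9 fell by 0.19 (edgeR), 1 of 14 in each direction, where 942 of all 17004 genes were called higher and 826 lower. In the UPF1 knockdown SRRM1 rose by 0.14, while SRSF9, RSRC1 and SRSF8 fell by 0.30, 0.21 and 0.16, beside 12.4% of all genes called higher and 12.9% lower. In TPM, the RSRC1 and SRSF8 libraries overlapped those of SCR, as did those of SRSF9 in the DHX34 knockdown. SON, a large scaffold of nuclear speckles, was at 69.4, 75.0 and 80.7 TPM in SCR, 106, 115 and 125 in the DHX34 knockdown and 121, 114 and 115 in the UPF1 knockdown. Both knockdowns lay above SCR, and SON was not called in the UPF1 knockdown. The NMD to coding ratio could be tested in 11 of the 15. It rose in 5 after UPF1 depletion: SRSF11 by 1.43, SON by 1.41, BCLAF1 by 0.90, SREK1 by 0.86 and ACIN1 by 0.81 (limma), where 15.3% of all genes tested were called higher. SRRM2 fell by 0.82 after UPF1 depletion (limma adjusted p = 0.0238) and by 1.29 after DHX34 depletion (limma adjusted p = 0.0319). Of all 3705 genes tested, 30 and 5 were called lower in these comparisons, respectively.

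In a list of 9 genes, the kinases of SR proteins and their import receptor TNPO3, CLK1, a nuclear kinase that phosphorylates SR proteins, fell by 0.41 in the DHX34 knockdown, and SRPK2, a cytoplasmic kinase of the same substrates, rose by 0.24 (edgeR), again 1 in each direction. CLK1 was at 13.1, 11.5 and 11.8 TPM in SCR, 9.22, 9.02 and 11.4 in the DHX34 knockdown and 14.3, 13.5 and 13.8 in the UPF1 knockdown, and these groups did not overlap. None of the 9 passed in the UPF1 knockdown against SCR. Against the DHX34 knockdown CLK4, CLK1 and TNPO3 were higher in the UPF1 knockdown, by 0.53, 0.40 and 0.26, which is 3 of 9, where 9.89% of all genes tested were called higher. The NMD to coding ratio of the 6 that could be tested did not pass in any comparison.

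Among the genes whose NMD isoforms followed the members' summed NMD level most closely over the 9 libraries were DNAJC25 (Pearson r = 0.995), NFKBIB (0.993), RBM39 (0.993) and TMED3 (0.992), of 2176 genes compared. The libraries form a high UPF1 knockdown group and a lower group of the other 6, so these values describe that separation, with no test. RBM39, itself an SR-related splicing factor, had means of 35.5, 38 and 72.3 TPM of NMD isoforms in SCR, the DHX34 knockdown and the UPF1 knockdown.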

How the data were processed

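Poly(A) RNA of 9 K562 libraries was sequenced. The authors quantified reads with salmon 1.5.2 (with correction for GC content) against Ensembl release 93 on GRCh38, and deposited per library an expected count and a TPM for each of 203027 transcripts. The deposited series tables hold only the authors' comparisons by sleuth and SUPPA2 and were not used. Transcripts were joined by identifier to GENCODE 44, a later annotation, which gave biotypes, symbols and coordinates. The join matched 97.91% of transcripts and 98.08% to 98.12% of counts, and 100 of the 111 member isoforms, with all 21 NMD isoforms, had unchanged lengths. Salmon divides reads between isoforms that share exons, so single isoform and exon values are estimates, and no counting interval was derived from them.

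Expected counts were rounded and tested per gene and per isoform with edgeR 4.0.16 (R 4.3.3; quasi-likelihood, TMM, filterByExpr with a minimum count of 10; called at an adjusted p of at most 0.005). Ratios of TPM were tested as log2 with a pseudocount of 0.1 TPM by limma 3.58.1 (called at an adjusted p of at most 0.05), where the mean over 9 libraries was at least 1 TPM for coding or skipping isoforms and 0.1 TPM for the others. Each fit used the 6 libraries of a pair of groups, and p-values were adjusted by Benjamini-Hochberg over all features. The 2 comparisons with SCR share its libraries. Alternatives included DESeq2 1.42.0, diffSpliceDGE, other pseudocounts and filters, and leaving out each library. The members and lists were chosen with earlier results of these data known. Named were all members, their tested exons, the top coding and top other isoform of each by mean TPM, every isoform called, the called genes of the lists, and the 5 genes closest by correlation of NMD TPM, of which 1 is not reported here.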

Additional observations from a re-analysis of the deposited data

How the results depend on the processing

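The values below are numbers of members, exons or isoforms called. NMD to coding ratio: against SCR, the 8 calls of the UPF1 knockdown became 0 at an adjusted p of at most 0.005 and 2 to 8 with a library left out. Against the DHX34 knockdown the 6 calls became 3 with NMD and noncoding isoforms together, 10 with a mean of at least 1 TPM, 0 at the stricter p and 0 to 6 with a library left out. Noncoding to coding ratio: with a pseudocount of 1 TPM, 3 members passed against SCR and 1 against the DHX34 knockdown, and 3 passed against SCR with a mean of at least 1 TPM. Poison exons: both counts (11 and 7) became 0 at the stricter p, the 7 against the DHX34 knockdown became 12 with a mean of at least 1 TPM or a pseudocount of 1 TPM, 4 with a pseudocount of 0.01 TPM and 11 with all 9 libraries in one fit, and leaving out a library gave 0 to 7 and 0. Gene sums: in the DHX34 knockdown the 2 calls became 5 with DESeq2, all 9 libraries, no filter or an adjusted p of at most 0.05, 0 with length-scaled counts or limma on TPM, and 0 to 3 with a library left out. In the UPF1 knockdown the 4 calls became 8 at an adjusted p of at most 0.05 against SCR and the 2 became 4 with DESeq2 and 5 at that p against the DHX34 knockdown, and leaving out a library gave 4 to 5 and 2 to 3. Single isoforms: DESeq2 called 4, 29 and 23 in the DHX34 knockdown, the UPF1 knockdown and the direct comparison, an adjusted p of at most 0.05 gave 2, 30 and 21, and leaving out a library gave 0, 0 to 5 and 1 to 3.

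Directions changed only on TPM tested with limma among the alternatives run, in gene sums of TRA2B (0.01) in the DHX34 knockdown and of SRSF1 (0.02), SRSF2 (0.00), SRSF3 (0.06), SRSF4 (0.20), SRSF6 (0.20) and TRA2A (0.27) in the UPF1 knockdown, and in isoform SRSF6-201 (0.00). This counts only results called by either test. No NMD to coding ratio or exon that was called changed direction.

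Replicate numbers did not pair the libraries: correlations of same-numbered deviations ran from -0.22 to 0.13, and a library correlated best with its own number in 6 of 18 checks. With a replicate block in the fit, the calls of the 2 UPF1 comparisons became 0 and 0 for the ratio, 0 and 0 for exons and 0 and 0 for isoforms, and gene sums gave 0, 5 and 2. The block leaves fewer degrees of freedom.

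Counts over all features moved with the same settings. With a library left out, the range and the full count were 57 to 426 and 597 for the NMD to coding ratio, 5 to 130 and 262 for exons and 37 to 569 and 1620 for isoforms (UPF1 knockdown against SCR), and 781 to 1785 and 1768 for gene sums in the DHX34 knockdown. Members with under 3 TPM of NMD isoforms in SCR (SRSF1, SRSF4, SRSF5, SRSF10 and TRA2A) had standard errors of 0.24 to 0.47 for that ratio, and the other members 0.10 to 0.23. Small differences in the first 5 could therefore be missed, and no detection limit was computed.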
